A study of Mus musculus with 5 samples.

Results

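The 40 genes described here act in DNA replication and mitosis and were examined for TLX binding and for histone acetylation in mouse neural stem cells and in brain tumour stem cells. The genes were taken as a named list, with earlier results of these data known, and all 40 were found among the 21887 protein-coding genes of the mm10 RefSeq annotation. By role, 17 act in DNA replication, 6 regulate the passage from G1 into S phase, and 17 act in mitosis. TLX, encoded by Nr2e1, is an orphan nuclear receptor of neural stem cells. It was introduced by retrovirus as TLX-3xTY1 and precipitated with a TY1 antibody from neural stem cells (NSC, 1 library) and from brain tumour stem cells (BTSC, 1 library). H3K27ac, acetylation of histone H3 at lysine 27 that marks active promoters and enhancers, was precipitated from NSC and BTSC that were not transduced, again with 1 library each. A control without antibody, from cells with the empty MSCV-neo vector, was not used here. The labels give a single protocol text for all samples, which names primary neural stem cells and G-481 selection. How the BTSC were derived, and the age and strain of the mice, are not given there.

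DNA replication is prepared in G1, when CDC6 and CDT1 load the MCM2 to MCM7 helicase onto origins. It is started by cyclin E with CDK2 and by E2F factors, and is then carried out by primase, polymerases and the sliding clamp PCNA. Mitosis is driven by CDK1 with B-type cyclins, by the kinases PLK1, AURKA and AURKB, and is held back by the spindle checkpoint until all chromosomes are attached. Neural stem cells in culture divide, and in dividing cells the promoters of both groups are commonly acetylated. Genes of the first group are known as targets of E2F factors, and many of the second carry a CHR element, which is bound by the DREAM and MuvB complexes.

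Each group is a single library, so replicate error cannot be given and every difference below describes a pair of libraries without a test. On the chromosomes analysed, the TLX lists held 7452 peaks in NSC and 1434 in BTSC, and the H3K27ac lists 31258 and 31592. Read depth is unknown, so a peak missing from a list means only that none was called there. BTSC had more H3K27ac on chromosome 1 (covered base pairs 1.66 times those of NSC) and less on chromosome 6 (0.789 times). TLX peaks were also uneven, with 461 of 7452 in NSC and 297 of 1434 in BTSC on chromosome 1. On chromosome 6 there were 769 TLX peaks in NSC and 75 in BTSC. The part of the chromosomes in the TLX peaks of single genes was not tested. Mcm3 and Mcm6 lie on chromosome 1, and Mcm2, Mad2l1 and Foxm1 on chromosome 6. Of 10 neural stem cell markers, 8 had H3K27ac at a gene end in either culture, and Pax6 and Msi1 had none. Markers of microglia (0 of 5), endothelium (0 of 5) and fibroblasts (0 of 4) had none in either culture. Of 6 neuron markers, 4 had H3K27ac at an end in NSC and 2 in BTSC. These are not all the marker lists that were examined, and whether other cell types took part in the differences below was not tested.

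TLX peaks lay at a minority of the replication and mitosis genes, at a share whose interval included that of all genes in either culture. A gene was counted when a TLX peak overlapped it or the 10 kb on either side. In NSC, 11 of 40 genes had a TLX peak, or 27.5% (exact Clopper-Pearson 95% interval 14.6 to 43.9, counting error only), against 24.8% of all protein-coding genes. In BTSC, 4 of 40 had one, or 10.0% (2.79 to 23.7), against 5.12% of all genes, and all 4 were also among the 11 of NSC. Replication and mitosis genes had equal counts, 5 of 17 each in NSC and 2 of 17 each in BTSC. Of the 6 G1/S regulators, E2f3 had a peak in NSC and none had one in BTSC. Among genes with H3K27ac at an end in both cultures, 40.3% had TLX in NSC and 8.22% in BTSC. On that footing 11 of 39 of the replication and mitosis genes in NSC (28.2%, 15.0 to 44.9) was a smaller share. In BTSC 4 of 39 (10.3%, 2.87 to 24.2) was a slightly larger one. Both intervals included the share of all such genes. With the NSC list cut to as many peaks as the BTSC list, 2 of 40 genes (Mad2l1 and Rrm1) had TLX in NSC, against 4.86% of all genes.

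The 4 genes with TLX in both cultures were Mad2l1, Rrm1, Aurkb and Cdt1, and they held the strongest of the NSC peaks by q. Folds and q values are the authors' own per peak, and are set side by side here without a comparison of their size between lists. Mad2l1, which encodes the checkpoint protein MAD2, had the strongest peak of all, at 66535048 to 66535977 on chromosome 6. Its fold was 11.1 and its −log10 q 39.1 in NSC, rank 209 of 7452, and the BTSC peak had a fold of 6.18 and a −log10 q of 10.8, rank 420 of 1434. The summits lay 181 bp and 97 bp downstream of the annotated start. Rrm1, the large subunit of ribonucleotide reductase, which makes deoxynucleotides, had a fold of 6.88 and a −log10 q of 16.9 in NSC and of 4.81 and 6.04 in BTSC. These summits were 33 bp and 13 bp downstream of the start. Cdt1, the factor that loads the MCM helicase, had a fold of 4.97 and a −log10 q of 8.66 in NSC and of 5.26 and 7.54 in BTSC. Its summits lay 227 bp and 223 bp upstream of the start, so in all these 3 genes both cultures had the summit within 100 bp of the same place. The peaks counted for Aurkb, the kinase of the chromosomal passenger complex, were not at the gene itself. The peak called in both cultures lay 5337 bp outside the gene in NSC (−log10 q 15.1) and 5444 bp in BTSC (−log10 q 5.33). Its nearest gene end was that of Ctc1. Another Aurkb peak, in NSC only (−log10 q 4.03), lay 8605 bp outside the gene, with its summit inside Borcs6.

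A further 7 genes had TLX in the NSC list only, all with peaks weaker than the strongest NSC peak of each of those 4. At annotated starts these were Aurka, a kinase of the centrosome and spindle (−log10 q 7.92, summit 86 bp upstream of the start), Cdk1, the kinase that begins mitosis (6.52, 81 bp upstream), and Rrm2, the small subunit of ribonucleotide reductase (5.20, 439 bp downstream). The Aurka summit also lay inside the neighbouring Cstf1, 11 bp from an end of that gene. Pcna had the weakest peak (−log10 q 3.38, 233 bp upstream), and its summit was nearer to the end of the neighbouring Cds2. E2f3 had a peak (7.92) 287 bp downstream of a start that lies inside the annotated gene. Foxm1, the transcription factor of G2 and mitosis genes, had a peak 701 bp outside the gene (7.21), nearest to Rhno1, and another nearest to Tulp3 (5.85). Cdc6, which loads the helicase together with CDT1, had no peak at its start but had peaks 1668 bp and 7143 bp beyond the gene (6.03 and 5.85), the second nearest to Rara. Of the 14 NSC peaks counted for these genes, 3 had a −log10 q above the list's median of 8.66, and 1 of the 4 BTSC peaks was above the BTSC median of 7.54. All 14 and all 4 overlapped H3K27ac of the same culture. So did every TLX peak counted for the other cell cycle genes described further below. The share of all TLX peaks that did so was not computed, so the overlap is not read as a trait of these genes. The plot of TLX peaks by gene shows how far Mad2l1 stands above the others.

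**Figure D1:**
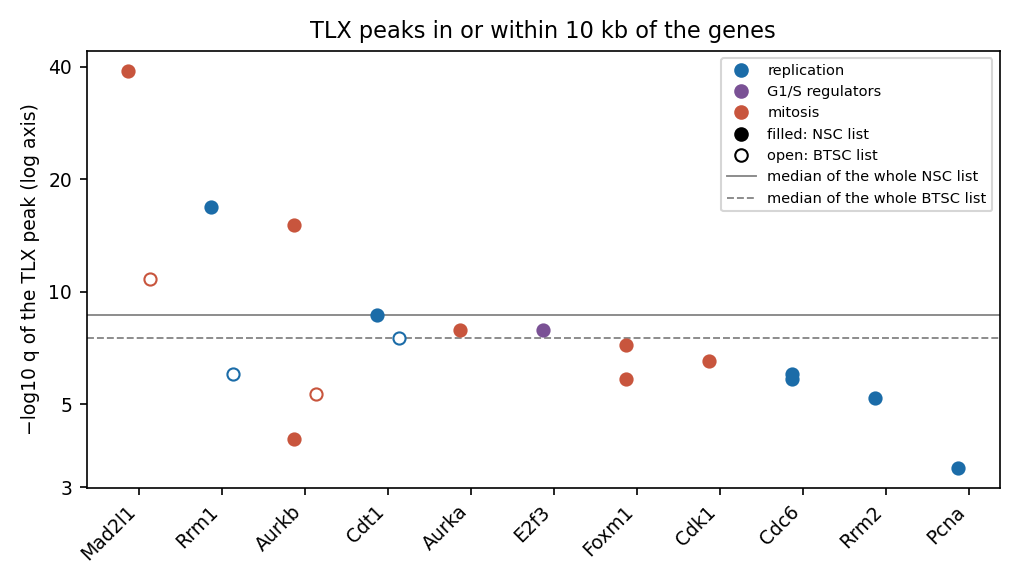
TLX peaks in or within 10 kb of the replication and mitosis genes, 1 point per peak, with the −log10 q of the peak on a log axis and genes ordered by their strongest NSC peak. Filled points are NSC and open points BTSC, colours give the role, and grey lines give each list's median (8.66 and 7.54); Mad2l1 reaches 39.1 in NSC.

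Of the 14 NSC peaks, 8 had their summit within 1 kb of an annotated start. Such a start, with strand, was given for 32 of the 40 genes by the RefSeq promoter table (build GRCm38.p6, the assembly of mm10). Ccna2, Ccne2, Foxm1, Gins1, Gins2, Kif20a, Mcm4 and Aurkb had no entry. Of the 32, 8 had a TLX peak within 1 kb of a start in NSC (25%, 95% interval 11.5 to 43.4). The share of all genes with an entry was 14.1%. In BTSC 3 had one (9.38%, 1.98 to 25.02), against 2.04%. Both intervals included the share of all genes. All 32 had H3K27ac at a start in NSC, against 53.4% of all genes with an entry. The TLX share among genes with H3K27ac at a start was not computed. Whether the 32 genes exceed such genes is thus not known. By role the NSC counts were 4 of 14 replication genes, 1 of 5 G1/S regulators and 3 of 13 mitosis genes. Among genes with TLX in NSC and an annotated start, the peak was within 1 kb of a start in 8 of 9 replication and mitosis genes (88.9%) and in 56.9% of 4339 genes in all. The first share rests on 9 genes only, no interval was computed for it, and the difference was not tested.

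The bases upstream of 6 starts are shown: the 4 strongest TLX peaks over a start that is also the outer end of its gene (Mad2l1, Rrm1, Cdt1, Cdk1), Kif11 for its acetylation and Prim1 as the gene without H3K27ac in BTSC. The last 2 were chosen after their values were seen. Each is the 250 bases before the start, from RefSeq (GRCm38.p6), 5′ to 3′ on the strand of the gene. Capitals mark any of 5 motifs on either strand: AAGTCA (the TLX core), TTTGAA (CHR), CCAAT (bound by NF-Y), and GGCGGGA and TTGGCGC (both E2F). A CCAAT on the other strand can share letters with TTGGCGC, and in Prim1 a CCAAT overlaps the end of an E2F motif.
Mad2l1, chr6:66534971-66535220, plus strand: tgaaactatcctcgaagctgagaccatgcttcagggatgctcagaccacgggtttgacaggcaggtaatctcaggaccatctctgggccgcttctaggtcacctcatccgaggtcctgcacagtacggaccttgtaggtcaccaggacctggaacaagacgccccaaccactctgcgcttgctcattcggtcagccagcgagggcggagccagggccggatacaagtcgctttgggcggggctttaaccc
Rrm1, chr7:102441445-102441694, plus strand: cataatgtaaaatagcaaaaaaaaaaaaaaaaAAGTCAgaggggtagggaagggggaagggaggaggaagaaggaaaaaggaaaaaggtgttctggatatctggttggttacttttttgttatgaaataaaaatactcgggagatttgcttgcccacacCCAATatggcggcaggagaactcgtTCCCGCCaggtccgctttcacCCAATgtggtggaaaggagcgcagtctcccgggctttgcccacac
Cdt1, chr8:122567765-122568014, plus strand: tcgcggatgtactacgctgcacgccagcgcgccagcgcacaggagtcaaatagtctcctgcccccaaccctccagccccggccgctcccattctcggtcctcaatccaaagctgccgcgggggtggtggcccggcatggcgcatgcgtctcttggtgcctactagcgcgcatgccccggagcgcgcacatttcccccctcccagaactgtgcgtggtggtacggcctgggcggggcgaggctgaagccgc
Cdk1, chr10:69352913-69353162, minus strand: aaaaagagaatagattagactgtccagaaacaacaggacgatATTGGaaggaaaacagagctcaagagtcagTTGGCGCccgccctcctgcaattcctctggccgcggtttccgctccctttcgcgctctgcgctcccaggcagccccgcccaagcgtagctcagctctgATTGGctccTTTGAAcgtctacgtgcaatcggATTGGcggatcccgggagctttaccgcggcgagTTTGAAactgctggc
Kif11, chr19:37376132-37376381, plus strand: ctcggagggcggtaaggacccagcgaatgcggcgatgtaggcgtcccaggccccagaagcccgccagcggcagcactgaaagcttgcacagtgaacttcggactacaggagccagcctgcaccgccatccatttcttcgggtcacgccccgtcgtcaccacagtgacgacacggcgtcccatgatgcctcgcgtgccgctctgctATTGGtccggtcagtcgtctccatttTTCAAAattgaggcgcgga
Prim1, chr10:128014965-128015214, plus strand: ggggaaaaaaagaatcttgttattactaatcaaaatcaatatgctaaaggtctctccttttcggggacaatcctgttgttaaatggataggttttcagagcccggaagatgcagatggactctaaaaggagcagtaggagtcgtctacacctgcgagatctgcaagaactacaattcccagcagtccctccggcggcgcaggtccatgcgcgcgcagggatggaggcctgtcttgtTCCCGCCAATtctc

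In these windows Rrm1 held a TLX core 218 to 213 bases before its start and a CCAAT at 91 and at 45 bases before it. That core lay upstream of the Rrm1 TLX peaks, which began at 102441563 in NSC and 102441576 in BTSC. Cdk1 held CHR motifs beginning 71 and 15 bases before the start and 3 CCAAT motifs. Kif11 held a CHR motif 19 to 14 bases and a CCAAT 45 to 41 bases before the start. Mad2l1 and Cdt1 held none of the 5 motifs in the bases shown. The Mad2l1 TLX summits, 181 bp and 97 bp downstream of the start, lay outside those bases. The full sequences of the TLX peaks were not searched, so a missing motif here does not describe the peaks. Matches are of letters only and are not measured sites.

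Over the full 300-base windows (250 before to 50 after the start) the CHR motif was found more often at mitosis than at replication genes. TTTGAA was present in 9 of 13 mitosis promoters (69.2%), 1 of 14 replication promoters (7.14%, Mcm2) and 1 of 5 G1/S promoters (E2f3), against 16.5% of 17492 promoters. The 9 were Aurka, Bub1b, Ccnb2, Cdc20, Cdk1, Kif11, Mki67, Plk1 and Top2a. In the wider list of other mitosis genes described below it was present in 24 of 35 (68.6%), and in other replication genes in 5 of 33 (15.2%). CCAAT was present in 11 of 14 replication and 11 of 13 mitosis promoters, against 39.0% of all. TTGGCGC was present in 6 of 14 replication promoters (42.9%), namely Cdt1, Mcm3, Mcm5, Mcm6, Mcm7 and Pola1. It was present in 2 of 5 G1/S promoters and in 3 of 13 mitosis promoters (23.1%), against 3.17% of all. In the wider lists CCAAT was present in 15 of 33 other replication (45.5%) and 24 of 35 other mitosis promoters (68.6%), and TTGGCGC in 5 of 33 (15.2%) and 5 of 35 (14.3%). GGCGGGA was present in 11 of 32 promoters over the 3 roles (34.4%), against 14.9% of all. Among promoters of genes with H3K27ac at an end in both lists the share was 22.3%. In the wider lists it was present in 14 of 33 other replication (42.4%) and 8 of 35 other mitosis promoters (22.9%). The TLX core AAGTCA was present in 2 of 32 (6.25%, E2f2 and Rrm1), against 13.2% of all promoters and 11.6% of the 2468 promoters with TLX within 1 kb in NSC. Of the 8 promoters with TLX within 1 kb in NSC, 1 (Rrm1) held it, outside the TLX peaks of both cultures. The windows do not cover the whole of these 8 genes' TLX peaks, and the rest of each peak was not searched.

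Nearly every gene carried H3K27ac at an end in both cultures. A peak within 1 kb of either gene end was called for 40 of 40 genes in NSC, against 52.2% of all protein-coding genes, and for 39 of 40 in BTSC, against 51.7%. At annotated starts the counts were 32 of 32 in NSC (53.4% of all genes with an entry) and 31 of 32 in BTSC (52.9%). Prim1, the catalytic subunit of primase, was the 1 gene with a peak in NSC only (2.62% of all genes), and no gene had one in BTSC only (2.09%). Its NSC peak, at 128015000 to 128015744 on chromosome 10, was the narrowest of the 40 at 745 bp, with a fold of 5.44 and a −log10 q of 14.8. In BTSC the nearest peak lay 4546 bp beyond the far end of Prim1 and 19361 bp from its start. With a −log10 q of at least 5, Gins2 also lacked a peak in BTSC, where its only one had a −log10 q of 3.16.

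The acetylated peaks stood lower among the genes in BTSC than in NSC. Each gene's widest peak within 1 kb of an end was ranked by q within its own list, over the 10861 genes with such a peak in both lists, so that both rankings have the same length. The 39 genes ranked had a median percentile of 61.5 in NSC and 30.9 in BTSC. The percentile was lower in BTSC for 36 of 39 genes (92.3%), against 48.0% of all genes, and the exceptions were Mcm2, Rfc3 and Ccnb2. It was lower by at least 10 points for 27 of 39 (69.2%), against 19.3% of all genes, and higher by at least 10 points for none of 39, against 19.9%. The median difference, BTSC minus NSC, was -15.9 points, against 0.368 for all genes. Without chromosomes 1 and 6, 25 of 34 genes were at least 10 points lower. The median of the 34 was -17.1 points, against 0.313 for all genes outside these chromosomes. The share of all genes outside them that were at least 10 points lower was not computed. Over all genes the median difference was 10.8 points on chromosome 1 and -8.07 points on chromosome 6, and the part of the chromosomes in the values of Mcm3, Mcm6, Mcm2, Mad2l1 and Foxm1 was not tested.

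**Figure D2:**
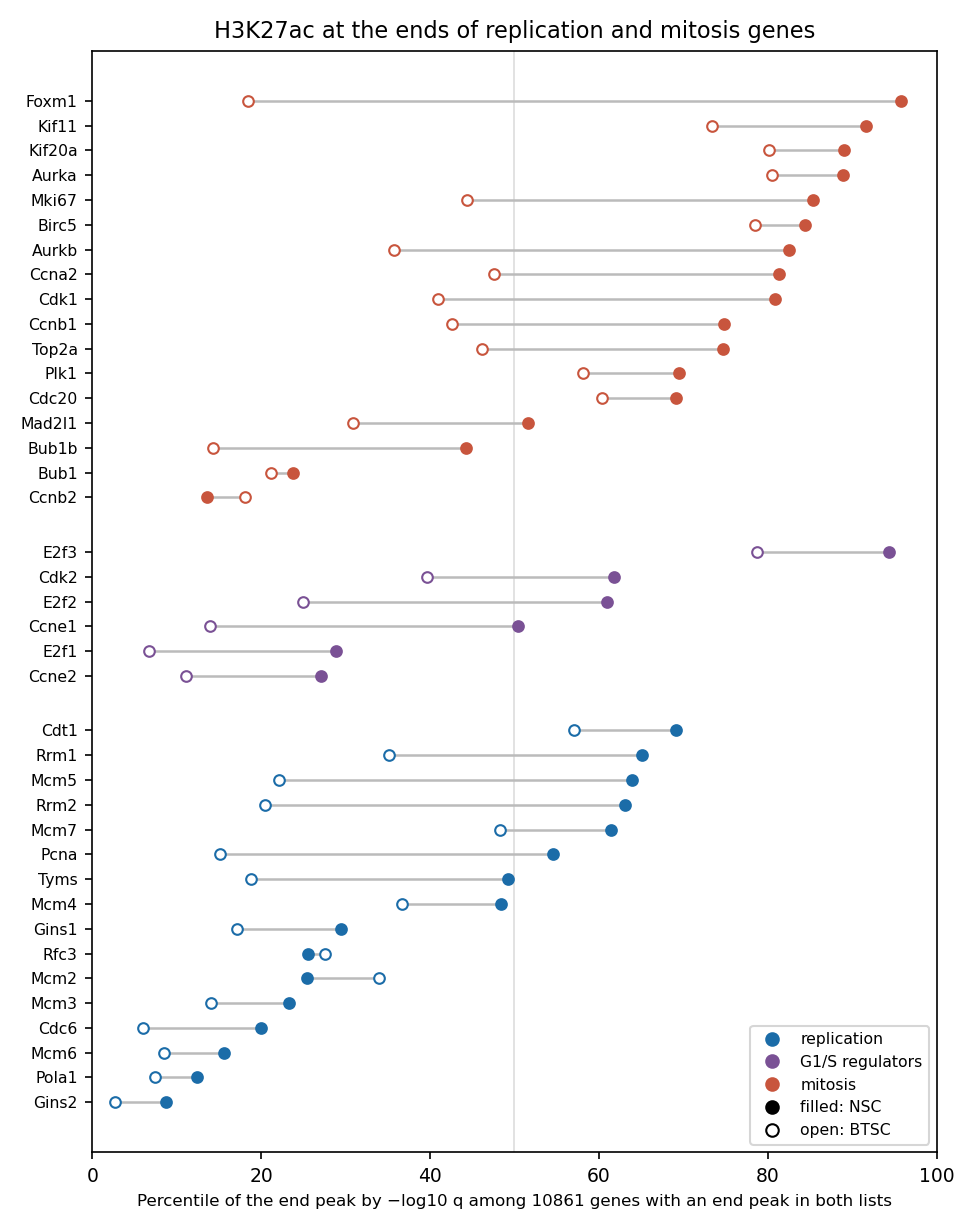
Percentile of each gene's H3K27ac end peak by −log10 q among the 10861 genes with an end peak in both lists, 1 row per gene, grouped and coloured by role. Filled points are NSC and open points BTSC; the open point is to the left in 36 of 39 genes, and mitosis genes reach further right in NSC than replication genes.

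The highest percentiles in NSC were mostly those of mitosis genes. Percentile 75 or above, where 25% of all ranked genes stand by construction, held 9 of 17 mitosis genes in NSC and 3 of 17 in BTSC. No replication gene stood there in either culture. The median percentile of mitosis genes was 80.9 in NSC and 44.4 in BTSC. Their median difference was -20.7 points, and 11 of 17 were at least 10 points lower. Foxm1 had the highest percentile of all 39 in NSC, 95.8, and 18.5 in BTSC, with folds of 23.2 and 5.32 and a −log10 q of 152 and 13.1. That peak also held an end of Rhno1, and the width of the domain was 4074 bp in NSC and 5435 bp in BTSC. Aurkb stood at percentile 82.5 in NSC and 35.7 in BTSC (−log10 q 90.6 and 25.1). Mki67, the proliferation marker that coats mitotic chromosomes, stood at 85.3 and 44.4 (folds 16.6 and 8.15). Cdk1 stood at 80.9 and 41.0 (folds 16.2 and 7.87), and its partners Ccna2 at 81.3 and 47.6 and Ccnb1 at 74.8 and 42.6. Top2a, the topoisomerase that untangles chromosomes, stood at 74.7 and 46.1. The checkpoint kinase gene Bub1b stood at 44.2 and 14.4, and Mad2l1 at 51.6 and 30.9.

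At other mitosis genes the percentiles of both cultures lay within 20 points of each other. Kif20a, a kinesin of cytokinesis, stood at 89.0 in NSC and 80.2 in BTSC, Aurka at 88.9 and 80.5, and Birc5, the survivin partner of AURKB, at 84.4 and 78.5. Kif11, the kinesin that separates the spindle poles, stood at 91.6 and 73.3. Cdc20, an activator of the anaphase-promoting complex, stood at 69.2 and 60.4, and Plk1 at 69.4 and 58.2. Bub1 was low in both (23.8 and 21.1), and Ccnb2 was the 1 mitosis gene with a higher percentile in BTSC (13.6 and 18.1). The end peaks of Kif20a and Aurka also held an end of Brd8 and of Cstf1.

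Replication genes had a lower median than mitosis genes in either culture. Their median percentile was 39.0 in NSC and 19.7 in BTSC, the median difference was -12.3 points, and 10 of 16 were at least 10 points lower. Ranked within the whole lists, the median difference was -12.5 points for replication and -12.9 for mitosis genes. The larger difference of mitosis genes was thus not seen with that ranking. No replication gene was above percentile 69.2, which was that of Cdt1 in NSC (57.0 in BTSC). The largest differences were at Rrm2 (63.0 and 20.5), Mcm5 (63.9 and 22.1, folds 12.7 and 5.91) and Pcna (54.6 and 15.1, folds 10.8 and 4.98), whose peak also held an end of Cds2. Tyms, thymidylate synthase, stood at 49.2 and 18.8, and Rrm1 at 65.1 and 35.1. Within the MCM helicase the values were uneven. Mcm7 stood at 61.5 and 48.3 and Mcm4 at 48.4 and 36.7, both with a peak that held an end of another gene (Ap4m1 and Prkdc), Mcm3 at 23.3 and 14.1 and Mcm6 at 15.6 and 8.50. The GINS subunit Gins1 stood at 29.5 and 17.1 and Gins2 at 8.78 and 2.72, the lowest of all. The polymerase subunit Pola1 stood at 12.4 and 7.45, and the clamp loader subunit Rfc3 at 25.6 and 27.6.

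For Mcm2 and Cdc6 the widest end peak was not the one at the start. Mcm2 had a percentile of 25.4 in NSC and 33.9 in BTSC through a domain at its far end, which was 7486 bp wide in NSC and 12875 bp in BTSC. At the start of Mcm2 the peak was 2137 bp wide with a fold of 7.21 and a −log10 q of 25.5 in NSC, and 598 bp wide with a fold of 3.87 and a −log10 q of 6.15 in BTSC. Cdc6 stood at 19.9 and 5.98 through a peak at its far end. At the start of Cdc6 the peak was 2865 bp wide with a −log10 q of 7.08 in NSC, and 830 bp wide with a −log10 q of 2.35 in BTSC.

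All 6 G1/S regulators stood at least 10 points lower in BTSC by the widest end peak. Ranked within the whole lists, E2f3 differed by -6.48 points, and by the strongest end peak, which holds ends of Pmel and Rab5b, Cdk2 stood 5.34 points higher in BTSC. E2f3 had the second highest percentile of the 39 genes in NSC (94.4, fold 22.7) and stood at 78.7 in BTSC (fold 15.2). E2f2 stood at 61.0 and 25.01 and E2f1 at 28.9 and 6.78. Of the cyclin E genes, Ccne1 stood at 50.4 and 13.9 and Ccne2 at 27.1 and 11.2, and their partner Cdk2 at 61.8 and 39.6.

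**Figure D3:**
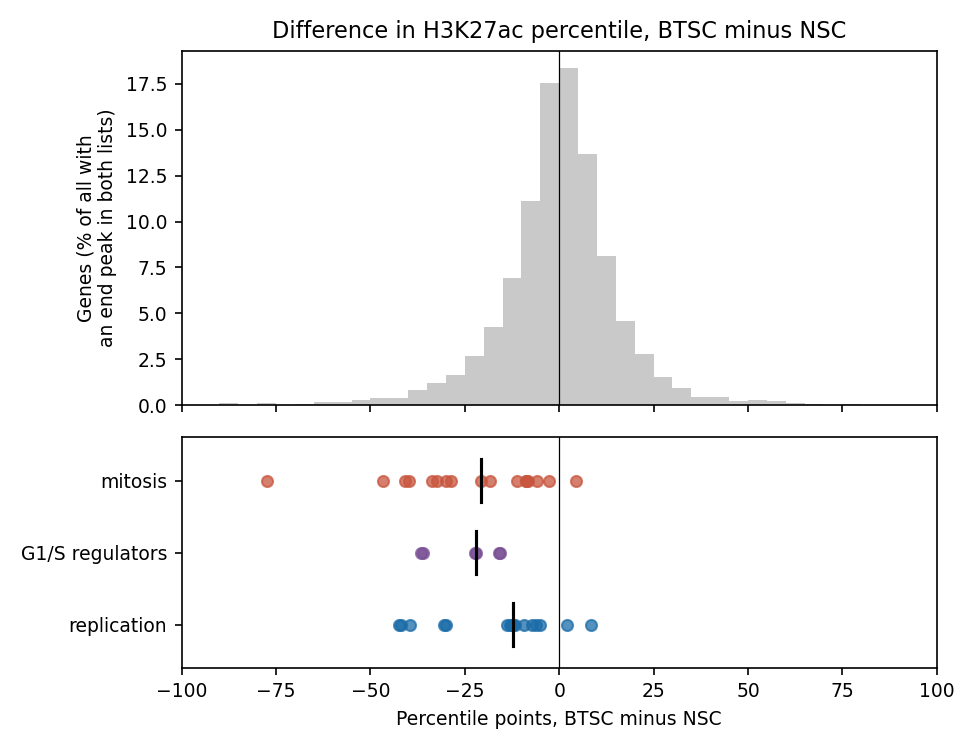
Difference in H3K27ac percentile, BTSC minus NSC, in percentile points. The upper panel shows the share of the 10861 genes with an end peak in both lists in bins of 5 points, and the lower panel the replication and mitosis genes by role, 1 point per gene, with a black bar at each median (-12.3, -22.2 and -20.7 for replication, G1/S regulators and mitosis).

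The width of the peaks differed less than their rank. The median ratio of widths, BTSC over NSC, was 0.960 for the 39 genes and 1.03 for all genes. The end peak was at least 1.5 times wider in BTSC for 4 of 39 genes (10.3%), against 12.5% of all genes, and at least 1.5 times wider in NSC for 1 of 39 (2.56%), against 6.94%. The 4 were Cdk1 (3007 bp in NSC and 5552 bp in BTSC), Kif11 (2035 and 3925 bp), Ccnb2 (1666 and 3221 bp) and Mcm2. The 1 was Mad2l1, with 6489 bp in NSC and 1677 bp in BTSC. By role the median ratio was 0.932 for replication genes, 0.830 for G1/S regulators and 1.10 for mitosis genes. The widest end peaks were those of Mcm2, Mad2l1 and Plk1 (4653 bp) in NSC, and of Mcm2, Cdk1 and Foxm1 in BTSC. The narrowest were those of Prim1, Bub1 (1039 bp) and Gins1 (1133 bp) in NSC, and of Bub1b (1002 bp), Tyms (1108 bp) and Bub1 (1124 bp) in BTSC.

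Covered base pairs around the genes went both ways. The window reached 25 kb to each side of both gene ends, so it takes in peaks of neighbouring genes. The median ratio, BTSC over NSC, was 1.10 for the 40 genes and 1.07 for the 15046 genes with coverage in both lists. At least 1.5 times more was covered in BTSC for 7 of 40 genes (17.5%), against 19.3% of all genes, and in NSC for 5 of 40 (12.5%), against 10.5%. These shares are near those of all genes. In absolute terms the genes with most more in BTSC were Mcm2 (14237 bp in NSC and 18580 bp in BTSC), Pola1 (3588 and 6940 bp), Pcna (5368 and 8625 bp), Aurkb (19465 and 22651 bp) and Kif11 (2035 and 5175 bp). Of these, Pola1 and Pcna had less in BTSC with a window of 10 kb (log2 ratios -0.34 and -0.0017). Those with most more in NSC were Cdc6 (16858 and 9030 bp), Foxm1 (15001 and 9577 bp), Mad2l1 (6489 and 1677 bp), E2f2 (11801 and 8577 bp) and Ccne1 (4621 and 1490 bp). Mad2l1, on chromosome 6, thus had the strongest TLX peak, one that was called in both cultures, in a domain that was 0.258 times as wide in BTSC as in NSC.

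**Figure D4:**
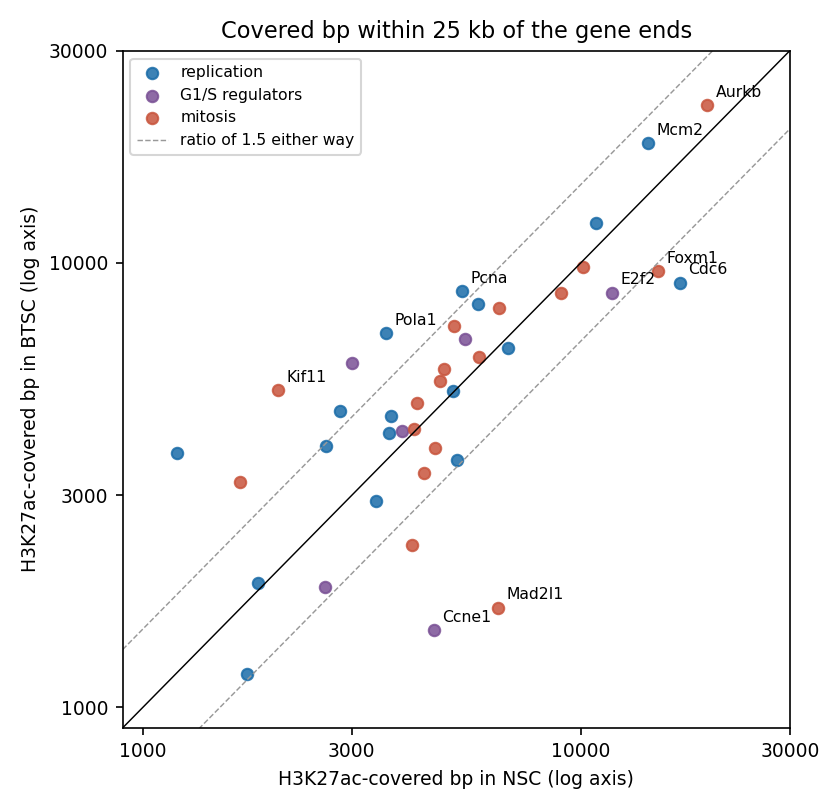
H3K27ac-covered base pairs within 25 kb of the gene ends, NSC against BTSC on log axes, 1 point per gene, coloured by role. The solid line marks equal coverage and the dashed lines a ratio of 1.5; 7 genes lie above the upper dashed line and 5 below the lower one, and the 10 genes with the largest differences are named.

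The lower rank in BTSC was seen with and without TLX. Of the 11 genes with a TLX peak in NSC, 10 were at least 10 points lower in BTSC, the exception being Aurka. Of the 28 genes without one, 17 were. Over all genes with an end peak in both lists, the shares were 21.0% of 4374 genes with TLX in NSC and 18.1% of 6487 without. Both groups share the same H3K27ac libraries, and the difference between them was not tested.

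Other genes of the same processes were counted in the same way. Of 40 other replication genes, such as origin recognition complex subunits, polymerases and replication protein A, 10 had TLX in NSC (24.8% of all genes) and 1 in BTSC (5.12%). Of 40 other mitosis genes, such as kinetochore, condensin and cytokinesis genes, 11 had TLX in NSC and 2 in BTSC. H3K27ac lay at an end of 37 of 40 other replication genes in both cultures, with Orc1, Orc4 and Rfc1 without it in either, and of 40 of 40 other mitosis genes in both. Rfc1 did have H3K27ac in both cultures over its NSC TLX peak, 8 bp upstream of an annotated start inside the gene. At annotated starts, H3K27ac was called for 32 of 33 other replication and 34 of 35 other mitosis genes in either culture. The percentile of the end peak was at least 10 points lower in BTSC for 27 of 40 other mitosis genes (67.5%) and for 15 of 37 other replication genes (40.5%), against 19.3% of all genes. It was at least 10 points higher for 3 of 40 and 3 of 37, against 19.9%. The median difference was -18.3 points for other mitosis genes and -7.31 for other replication genes. Genes with a TLX peak in BTSC were Rfc4, a clamp loader subunit (−log10 q 8.32, nearest to Eif4a2), Mad1l1, the checkpoint partner of MAD2 (4.47), and Cenpf (3.58, BTSC only). Cenpf lies on chromosome 1. The strongest NSC peaks were at Mad1l1 (25.4 and 18.7, both far inside the gene), near Chaf1a (20.8, nearest to Sh3gl1), 251 bp upstream of the start of Rfc4 (20.5) and near Ung (16.9).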

How the data were processed

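The submitters' processing notes name Bowtie, ChIPseeker, bcl2fastq 2.17.1.14 and build mm10. The peak caller was not given in the sources read. The authors deposited 1 peak list per library, narrow for TLX and broad for H3K27ac. Each deposited line holds a peak's position, a score, a fold enrichment (a linear ratio), and its p-value and q-value as −log10. In the deposited lists the score matched 10 × the −log10 q within 1 unit in 100% of lines. Peaks outside chromosomes 1 to 19, X and Y (2 to 8 per list) were left out.

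Genes came from RefSeq (GRCm38.p6), and starts, strand and promoter bases from its promoter table. Overlap meant at least 1 bp. No genome was used, so exons are not told from introns or untranslated regions. The plan was to rank each end peak within its whole list; since the lists differ in length, ranks over the genes with an end peak in both lists are reported, and the planned rank is given in the closing section. Named genes were taken by rule: those with TLX, with H3K27ac in 1 list only, or with the 5 largest differences in covered bp per direction, and the 3 widest and narrowest end peaks; other values are given for all genes of a role or as examples. The genes, the lists and the rule were chosen with earlier results of these data known. Intervals are exact binomial at 95%. Overlap and coverage code was tested on simulated peaks. Computations used Python 3.11.15, numpy 2.4.6, pandas 2.3.3, scipy 1.17.1 and matplotlib 3.10.9. Alternatives changed the windows, the q threshold, list length, peak choice, joining and scaling. The result of 1 further marker list is not reported here.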

Additional observations from a re-analysis of the deposited data

How the results depend on the processing

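No paired analysis was possible because each group has 1 library. Read depth is unknown, which limits every statement that a peak is missing. TLX counts depended on window and list length. With 25 kb around the gene, 18 of the 40 genes had TLX in NSC and 7 in BTSC (32.3% and 7.15% of all genes), made up in NSC of 7 replication genes, 9 mitosis genes and 2 G1/S regulators, with 1 G1/S regulator in BTSC. With the NSC list shortened to its strongest peaks, as many as in BTSC, the counts were 2 of all 40, 1 replication gene, 1 mitosis gene and 0 G1/S regulators, and in the other lists 3 replication, 1 mitosis and 1 regulator genes. Within 1 kb of gene ends only, 8 of the 40 genes had TLX in NSC and 3 in BTSC, against 13.2% and 1.90% of all genes. Among them were 0 G1/S regulators in NSC and 1 mitosis gene in BTSC. In the wider lists, 6 other replication and 6 other mitosis genes had TLX in NSC and 0 of either in BTSC. For the body and 1 kb, BTSC had 1 mitosis gene and 0 other replication genes. With 25 kb it had 3 other replication genes, and with a stricter q it had 0 other mitosis genes. The median log2 ratio of covered bp (0.14) was 0.052 with 10 kb, -0.011 for the gene body and 1 kb, 0.058 with a stricter q, -0.010 scaled per chromosome, 0.024 scaled by the lists' totals and 0.097 without chromosomes 1 and 6. Genes with at least 1.5 times more in NSC numbered 8 scaled by totals and 3 without chromosomes 1 and 6. Pola1 and Pcna reversed with 10 kb (-0.34 and -0.0017) and with the body and 1 kb (-0.011 and -0.27). Ranked within the whole lists, the median percentile difference of end peaks was -12.95 points, against -0.320 for all genes. By that rank 25 genes were at least 10 points lower, against 14.9% of all genes. Its medians by role were -12.5 for replication genes, -19.9 for G1/S regulators and -12.9 for mitosis genes. The median difference was -16.1 with the nearest peak, -16.7 ranked by fold and -17.1 without chromosomes 1 and 6, the last 2 chosen after seeing the data. The cause of these changes was not tested.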

Other observations

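The regulators that repress or activate these promoters in turn, 16 genes of the RB, E2F, DREAM and MuvB groups, had H3K27ac at an end in both cultures in 16 of 16 (52.2% of all genes in NSC and 51.7% in BTSC). TLX lay at 6 of them in NSC, namely Rb1, Rbl1, E2f6, Tfdp2, Lin37 and Rbbp4, and at 0 in BTSC, against 24.8% and 5.12% of all genes. The strongest of these peaks was 29 bp upstream of the start of Rbl1, which encodes the pocket protein p107 (−log10 q 15.98, rank 1327 of 7452). Rb1 held a peak with a −log10 q of 14.2 far inside the gene and another (9.40) nearest to Lpar6, which lies within it. The percentile of the end peak was at least 10 points lower in BTSC for 5 of 16 (31.3%, against 19.3% of all genes) and at least 10 points higher for 2 of 16 (12.5%, against 19.9%). Among the 16, chosen after their values were seen, Rbl2 stood -48.1 points and E2f8 -40.9 points lower in BTSC, and Lin37 stood 43.0 points higher.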
